A study of Arabidopsis thaliana with 18 samples.

Results

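Rosettes of Arabidopsis thaliana exposed to sound at 1000 Hz were compared with rosettes exposed at 250 Hz, with no silent control in the contrast. The 3 arrays titled 1000 Hz and the 3 titled 250 Hz were used, 6 of the 18 arrays in the series. All plants were wild-type Columbia (Col-0), 20 days old and grown in continuous light. Both groups received sound at 80 dB for 1 h in a noiseless chamber, and rosettes were harvested as soon as the sound ended, so the groups differed by label in frequency alone. Each group held 3 biological replicates, and the labels do not say how many plants went into each. The series also holds control, 500, 2000 and 3000 Hz groups of 3 arrays. The 9 arrays of 500, 2000 and 3000 Hz entered the fit to share its estimate of spread, and their levels are given beside those of the compared groups.

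Sound reaches a leaf as vibration, and plants are known to respond to mechanical stimuli with calcium signals, rapid stress transcripts and jasmonate, the lipid-derived hormone of wounding and defence. Jasmonate and salicylate are both methylated to volatile esters by related carboxyl methyltransferases. Chloroplasts keep a small genome that encodes core subunits of the photosynthetic complexes and part of the machinery that expresses them. Peripheral antenna proteins and most Calvin cycle enzymes are encoded in the nucleus.

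Transcripts were measured on ATH1 arrays, on which each probe set reports a transcript as a log2 signal. A level on one probe set cannot be set against that on another. In whole rosettes, fewer cells of a type and less RNA per cell cannot be told apart. Of 22746 probe sets, 379 differed between 1000 and 250 Hz in limma's test at a Benjamini-Hochberg adjusted p under 0.05 (1.67%), and 4431 had an unadjusted p under 0.05. At 1000 Hz 183 were higher (0.805%) and 196 lower (0.862%), of which 29 and 47 differed by at least 2-fold. Differences were positive, that is higher at 1000 Hz, for 57.3% of all probe sets. With each array centred on its own median, the split was 298 higher and 161 lower. The groups did not overlap for all 379, as for 24.6% of all probe sets. A single gene could be named for 94 of the higher and 103 of the lower probe sets.

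These counts changed widely with the array left out. Without 250 Hz replicate 1 or 2, 33 and 36 probe sets passed, and without 1000 Hz replicate 1, 2 or 3, 41, 35 and 200 passed. Without 250 Hz replicate 3, 717 passed. All 379 kept their direction in these 6 fits, which had to be so because their groups did not overlap. In all of the fits 19 passed, 3 higher and 16 lower. Of the 43 genes picked by the naming rule that passed, 6, 7 and 37 also passed without 250 Hz replicate 1, 2 or 3, and 10, 5 and 23 without 1000 Hz replicate 1, 2 or 3. Replicate 3 of the 250 Hz group stood apart from its fellows: it differed at least 2-fold from replicates 1 and 2 at 222 and 299 probe sets, whereas replicates 1 and 2 differed so at 68. The 1000 Hz arrays differed so from each other at 110 to 144 probe sets, and arrays of different groups at 245 to 521.

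RNA quality and labelling were read from the arrays' own controls. The 3' minus 5' signal of actin was 2.13, 1.85 and 1.91 on the 250 Hz arrays and 1.94, 2.05 and 2.03 on the 1000 Hz arrays, and these ranges overlapped. The mean signal of the 24 poly-A spike probe sets, bacterial transcripts added before labelling, was 5.41, 5.47 and 5.37 at 250 Hz and 5.51, 5.48 and 5.59 at 1000 Hz. All 3 arrays of 1000 Hz thus lay slightly above those of 250 Hz, and the part of this in the results was not tested. The spike mean was 5.48 to 5.565 at 500 Hz, but 6.20 to 6.51 at 2000 Hz and 5.99 to 6.34 at 3000 Hz. The actin signal ran from 1.74 to 2.30, 1.67 to 1.84 and 1.56 to 1.67 in these 3 groups. The part of this in the levels given for those groups was not tested. Of 10 leaf markers, 2 could be named on the array, and both were abundant: RCA (Rubisco activase) and PRK (phosphoribulokinase) had signals of 13.07 to 14.24 on the 6 arrays. Of 10 root markers, 3 could be named. Their signals ran from 4.61 to 7.94 at 250 Hz and from 4.86 to 7.15 at 1000 Hz, and none passed. No floral or pollen marker could be named.

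The largest difference of a named gene was that of BSMT1 (AT3G11480), the methyltransferase that turns salicylate and benzoate into their volatile methyl esters. Its log2 signal was 7.39, 8.11 and 6.01 at 250 Hz and 3.98, 3.93 and 3.73 at 1000 Hz. All 3 arrays of 250 Hz lay above all of 1000 Hz, and the means at 500, 2000 and 3000 Hz, 3.94, 4.21 and 4.40, lay with 1000 Hz. The difference was -3.29 ± 0.40 (SE) on the log2 scale, 9.78-fold (limma adjusted p = 0.0018), and passed without any single array. At 1000 Hz BSMT1 lay far below the array medians, 6.52 to 6.57, and the part of background signal in the fold was not tested. The other 2 measured genes of the salicylate and defence list, GRX480 (-0.65 ± 0.30) and SAG101 (0.49 ± 0.18), did not pass (adjusted p = 0.245 and 0.167). The BSMT1 error shares the spread of all 5 sound groups, so it understates the SD of 1.07 at 250 Hz. In a fit of the 6 arrays alone the adjusted p was 0.0205.

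Its relative JMT (AT1G19640), jasmonic acid carboxyl methyltransferase, was lower at 1000 Hz too. JMT had signals of 7.83, 7.39 and 6.72 at 250 Hz and 6.32, 5.63 and 6.63 at 1000 Hz. The groups were separated by less than the spread within either, since 250 Hz replicate 3 and 1000 Hz replicate 3 lay close together. The difference was -1.12 ± 0.26 (adjusted p = 0.0498), and it passed in 2 of the 6 fits that leave out an array. In the 6 arrays alone it did not pass (adjusted p = 0.117).

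JRG21 (AT3G55970), annotated as jasmonate-regulated gene 21, was lower at 1000 Hz as well. Its signals were 7.37, 7.59 and 6.08 at 250 Hz and 3.89, 4.75 and 5.16 at 1000 Hz. As for JMT, replicate 3 was the lowest array at 250 Hz and the highest at 1000 Hz. The difference was -2.41 ± 0.43, or 5.33-fold (adjusted p = 0.0193). Means at 500, 2000 and 3000 Hz were 5.68, 5.16 and 5.03.

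THI2.1 (AT1G72260), a thionin long used as a jasmonate marker, had signals of 11.39, 9.50 and 8.09 at 250 Hz and 6.00, 5.49 and 8.12 at 1000 Hz. The groups overlapped through replicate 3 of each, and the gene did not pass (-3.12 ± 0.95, adjusted p = 0.102). The plant defensin gene PDF1.2 ranged from 8.33 to 10.90 at 250 Hz and from 8.01 to 10.70 at 1000 Hz, with no separation of the groups. MYC3, a transcription factor of the jasmonate response, was at -0.34 ± 0.09 without passing (adjusted p = 0.0668), and the difference of its partner MYC4 was 0.00 ± 0.13 in size (adjusted p = 0.990).

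In all, 11 jasmonate-linked genes could be named. Of these, 0 were higher and 2 lower by the test, 1 had a positive difference, and their median was -0.34 against 0.03 over all probe sets, of which 0.862% were lower by the test. The 2 calls fell to 0 without 250 Hz replicate 1 or 2 or 1000 Hz replicate 1 or 2, and the median ran from -0.67 without 250 Hz replicate 2 to -0.07 without 1000 Hz replicate 2. This list was drawn up after values had been seen, so its count is a description only. The mean deviation of its members from their average over the 15 sound arrays was 1.05, 0.37 and 0.36 on the 250 Hz arrays. On the 1000 Hz arrays it was -0.41, -0.41 and 0.27, and 1000 Hz replicate 3 lay nearest to the 250 Hz arrays. Only 1 gene of the jasmonate list taken from general knowledge, OPCL1, which activates a jasmonate precursor, could be named on the array, and it had a difference of 0.00 in size.

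**Figure D1:**
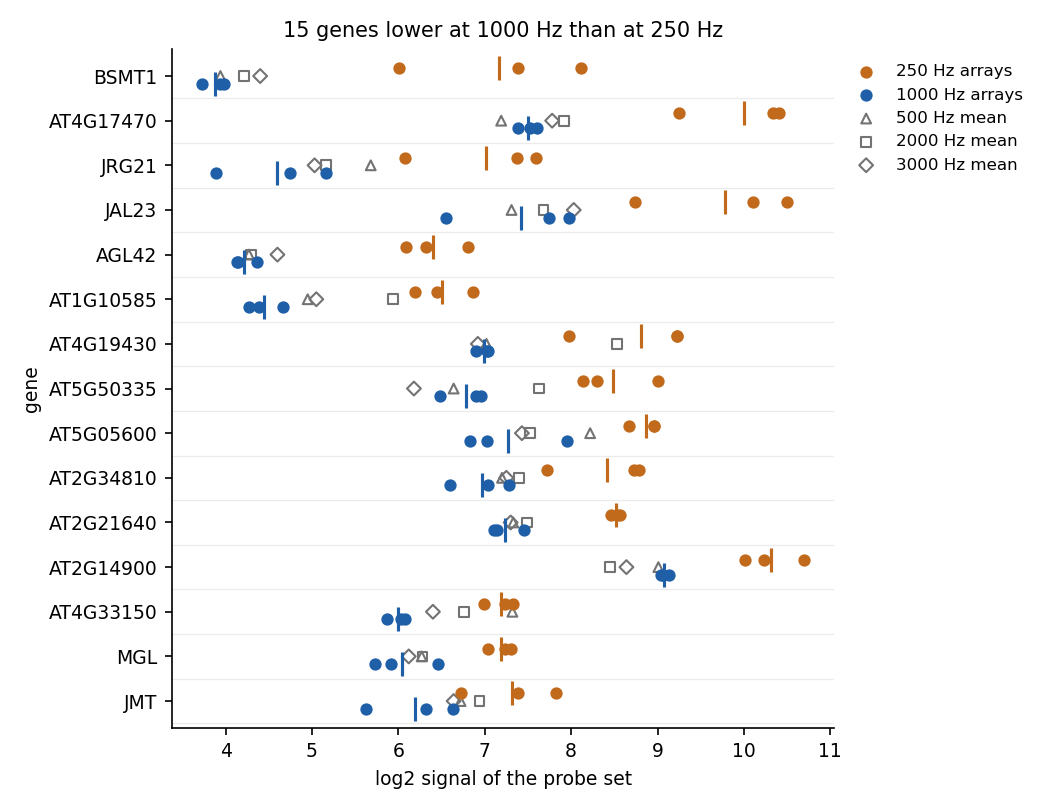
Log2 signals (horizontal axis) of the 15 named genes with the largest differences lower at 1000 Hz. Filled points are single arrays at 250 Hz (orange) and 1000 Hz (blue), vertical ticks are the means of 3 arrays, and open symbols are the means at 500, 2000 and 3000 Hz. The naming rule required no overlap, so the orange points lie to the right of the blue points in every row. BSMT1 has the widest gap between means, 3.29.

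Among carbohydrate-binding and regulatory genes, JAL23 (AT2G39330), a jacalin-related lectin, had 10.50, 10.11 and 8.74 at 250 Hz and 7.74, 6.55 and 7.97 at 1000 Hz. The 2 groups did not overlap, with 250 Hz replicate 3 nearest to 1000 Hz (-2.36 ± 0.54, adjusted p = 0.0456). Of 4 jacalin lectins measured, JAL23 alone passed, against 0.862% of all probe sets lower by the test. All 4 had negative differences, and the median was -0.79. Among the fits that leave out an array, JAL23 passed only without 250 Hz replicate 3. In the 6 arrays alone it did not pass (adjusted p = 0.0624). The lectin list was added with earlier results known, so its count is a description only. JAL22 was at -1.05 ± 0.32 (adjusted p = 0.102).

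AGL42 (AT5G62165), a MADS-box transcription factor also called FOREVER YOUNG FLOWER, was among the steadiest differences. Its signals were 6.32, 6.81 and 6.09 at 250 Hz and 4.13, 4.14 and 4.36 at 1000 Hz. The groups lay far apart relative to their spread, and 500, 2000 and 3000 Hz (4.27, 4.29 and 4.60) lay with 1000 Hz. The difference was -2.20 ± 0.25, or 4.58-fold (adjusted p = 0.00117), and it passed without any single array and in the 6 arrays alone (adjusted p = 0.00352). As for BSMT1, the 1000 Hz signals lay far below the array medians, and the part of background in the fold was not tested.

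AT1G10585, which the annotation used here names only by its locus, was likewise steady. It had 6.19, 6.45 and 6.86 at 250 Hz and 4.39, 4.66 and 4.27 at 1000 Hz (-2.06 ± 0.23, adjusted p = 0.00117). Its mean at 2000 Hz, 5.94, was closer to 250 Hz, while those at 500 and 3000 Hz were 4.95 and 5.05. AT5G50335 had 9.0, 8.30 and 8.14 at 250 Hz against 6.48, 6.90 and 6.96 at 1000 Hz (-1.70 ± 0.22, adjusted p = 0.00314). Both passed without any single array, as did AT4G04630 (-1.11 ± 0.13, adjusted p = 0.00117).

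A pair of amino acid catabolic genes was lower at 1000 Hz. MGL (AT1G64660), methionine gamma-lyase, which breaks methionine into methanethiol, ammonia and a keto acid, had 7.30, 7.23 and 7.04 at 250 Hz and 5.73, 5.92 and 6.46 at 1000 Hz (-1.15 ± 0.21, adjusted p = 0.0208). LKR/SDH (AT4G33150), the bifunctional enzyme that begins lysine breakdown, had 6.99, 7.33 and 7.24 against 5.87, 6.03 and 6.08. The LKR/SDH groups were each tight, with a difference of -1.19 ± 0.24 (adjusted p = 0.0297 here and 0.00593 in the 6 arrays alone). Unlike BSMT1, LKR/SDH had a mean at 500 Hz, 7.32, in the range of 250 Hz.

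The remaining genes of the 15 carry only locus names in the annotation used. AT4G17470 had 10.41, 10.34 and 9.25 at 250 Hz and 7.38, 7.60 and 7.52 at 1000 Hz, a 5.66-fold difference (adjusted p = 0.0241). AT2G21640 had 8.46, 8.53 and 8.57 against 7.45, 7.14 and 7.11, the tightest 250 Hz group among the 15 (-1.29 ± 0.25, adjusted p = 0.025). AT4G19430, AT5G05600, AT2G34810 and AT2G14900 had differences of -1.82, -1.59, -1.44 and -1.24, with adjusted p of 0.0297, 0.0168, 0.0155 and 0.0391. AT4G19430 differed in where the other frequencies lay: its mean was 8.53 at 2000 Hz but 7.02 and 6.92 at 500 and 3000 Hz.

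How many of these 15 passed depended on the array left out. Without 250 Hz replicate 1, 2 or 3, 4, 5 and 15 passed, and without 1000 Hz replicate 1, 2 or 3, 4, 4 and 9 passed. All 15 kept their direction, as the rule of no overlap made certain. In the 6 arrays alone 12 passed.

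The plastid genome gave the most calls of the 77 gene lists, all higher at 1000 Hz. Of 69 plastid-encoded genes measured, 15 were higher and 0 lower by the test, against 0.805% and 0.862% of all probe sets. 64 had positive differences, against 57.3% of all probe sets, and their median was 0.45 against 0.03 over all probe sets. The groups did not overlap upward for 36, or 52.2%, against 14.6% of all probe sets. The count changed widely with the array left out: it was 1, 1 and 38 without 250 Hz replicate 1, 2 or 3, and 2, 1 and 3 without 1000 Hz replicate 1, 2 or 3. The median stayed between 0.36 and 0.60 in those fits. In the 6 arrays alone 4 genes passed, with the same median.

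By array, the mean deviation of the plastid genes was -0.59, -0.54 and -0.15 at 250 Hz and 0.01, 0.06 and 0.04 at 1000 Hz. The 1000 Hz arrays were alike, and 250 Hz replicate 3 lay between them and its fellows. The actin 3' minus 5' signal overlapped between the groups and the spike signal was slightly higher on all 3 arrays of 1000 Hz, as given above, and their part in this result was not tested. Actin is a nuclear gene and the spikes carry poly-A tails, so neither shows how evenly plastid transcripts were labelled. The part of labelling in the plastid signals was not tested. Group means were -0.07 at 500 Hz, 0.33 at 2000 Hz and 0.13 at 3000 Hz, so 250 Hz was the lowest of the 5 sound groups for these genes, and 1000 Hz was in the middle. The 2000 and 3000 Hz arrays had higher spike signals than the others, and the part of this in their levels was not tested.

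psbT, which encodes a small subunit of photosystem II, was the plastid gene with the firmest difference. It had signals of 8.36, 9.09 and 8.85 at 1000 Hz and 7.40, 7.27 and 7.71 at 250 Hz. The groups did not overlap, and the difference was 1.31 ± 0.18, or 2.47-fold (adjusted p = 0.00562). It was the single plastid gene to pass without any 1 of the 6 arrays. Its mean at 3000 Hz, 7.45, lay within the range of 250 Hz, and those at 500 and 2000 Hz were 8.32 and 8.55.

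ycf3, whose product helps to assemble photosystem I, had the largest difference of the plastid genes. Signals were 9.18, 9.16 and 8.99 at 1000 Hz and 7.38, 7.38 and 8.43 at 250 Hz. Replicates 1 and 2 of 250 Hz had the same signal, and replicate 3 lay above them, towards 1000 Hz. The difference was 1.38 ± 0.27 (adjusted p = 0.0285), and 0.0501 in the 6 arrays alone.

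Photosystem I and its assembly factors had 4 of 7 genes higher, with a median of 0.62. Beside ycf3 these were ycf4, a further assembly factor (0.68 ± 0.15), the small subunit gene psaI (0.59 ± 0.13) and the core reaction centre gene psaB (0.57 ± 0.13). psaC, which encodes the iron-sulphur subunit, had 1.00 ± 0.25 without passing (adjusted p = 0.0583), and psaJ had 0.02 ± 0.10.

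Photosystem II had 5 of 15 genes higher: psbT, psbB for the CP47 antenna (0.88 ± 0.15), psbD for the D2 reaction centre protein (0.87 ± 0.18), psbH (0.67 ± 0.15) and psbZ (0.47 ± 0.10). It was also the complex with the widest spread, from -0.22 for psbK to 1.31, with a median of 0.27. psbA, for the D1 protein, had 0.30 ± 0.11 (adjusted p = 0.147).

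Of 6 ATP synthase genes, atpH, for the ring subunit through which protons pass, had 9.11, 9.54 and 9.65 at 1000 Hz and 7.85, 8.44 and 8.72 at 250 Hz. Those groups did not overlap, and the difference was 1.1 ± 0.23 (adjusted p = 0.0334). atpF had 0.76 ± 0.16 and also passed. Of 6 cytochrome b6f genes petB alone passed (0.56 ± 0.09, adjusted p = 0.0155), and of 10 NDH complex genes ndhE alone (0.89 ± 0.18, adjusted p = 0.0328). All members of these 3 complexes had positive differences.

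Medians for the plastid RNA polymerase and ribosome lay between those of photosystem II, 0.27, and photosystem I with its assembly factors, 0.62. Among the plastid RNA polymerase genes rpoC1 passed (0.55 ± 0.12, adjusted p = 0.0456), and the median of the 4 was 0.50. None of the 15 plastid ribosome genes passed, although 14 were positive and their median was 0.56, and the member with the largest difference, rps16, had 0.86 ± 0.22 (adjusted p = 0.0639). matK, for the intron maturase, was higher by 0.40 ± 0.09 (adjusted p = 0.0436). rbcL, for the large subunit of Rubisco, had 0.67 ± 0.18 without passing (adjusted p = 0.076).

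**Figure D2:**
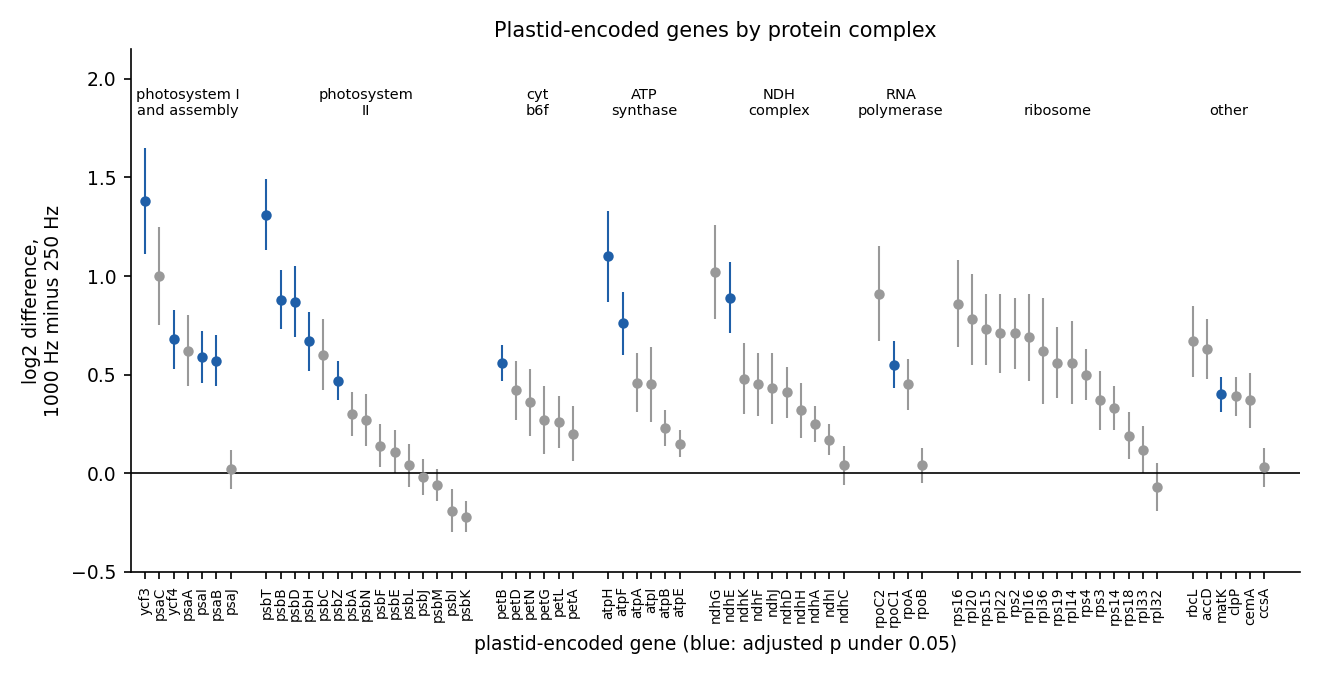
Differences of the 69 plastid-encoded genes, in log2 units (vertical axis), ordered by size within each complex. Points are 1000 Hz minus 250 Hz, bars are 1 standard error of the fit, and blue marks the 15 genes with an adjusted p under 0.05. Most points lie above 0, and photosystem II holds both the second largest value and the lowest, -0.22 for psbK.

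Plastid genes are largely transcribed in shared units, and 53 of the 69 could be placed in 13 such units from general knowledge, a grouping made after the values had been seen. In the psbB unit 4 of 5 genes were higher (psbB, psbT, psbH and petB), and the remaining one, petD, had 0.42 ± 0.15. In the atpI unit all 5 differences lay between 0.45 and 1.1, with atpH and atpF passing. The psbD unit ran from 0.47 to 0.87, with psbD and psbZ passing, and the psaI unit from 0.20 to 0.68, with psaI and ycf4 passing.

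The rpl cluster (6 ribosomal protein genes and rpoA) ran from 0.37 to 0.71, the psaA unit from 0.33 to 0.62 and the ndhC unit from 0.04 to 0.48, with psaB the only 1 of these genes to pass.

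The smallest differences were in 4 other units. The psbE unit (psbE, psbF, psbL, psbJ) ran from -0.02 to 0.14, and psbK and psbI, which share a unit, were at -0.22 and -0.19. The petL unit ran from 0.02 to 0.27, and atpB and atpE had 0.23 and 0.15. Within the psaC unit, psaC, ndhE and ndhG had 1.00, 0.89 and 1.02, whereas ndhI, ndhA, ndhH and ndhD had 0.17 to 0.41. The rpoB unit was likewise uneven, with 0.04 for rpoB, 0.55 for rpoC1 and 0.91 for rpoC2.

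Of 65 nuclear loci of the photosystems, antennae and Calvin cycle, 15 were measured. Of these 0 passed, 8 were positive and the median was 0.01. The groups did not overlap upward for 5, or 33.3%, against 14.6% of all probe sets, and the difference between this list and the plastid genes was not tested. The one with the smallest p was LHCB4.3, a minor antenna gene, at 11.54, 12.06 and 11.71 at 250 Hz and 12.36, 12.39 and 12.42 at 1000 Hz (0.62 ± 0.22, adjusted p = 0.142). LrgB (AT1G32080), a nuclear gene for a chloroplast envelope protein, was outside these lists and was higher by 0.57 ± 0.13 (adjusted p = 0.0487). It was singled out after its values were seen. Of 23 probe sets for 16 mitochondrion-encoded genes 0 passed, with 15 positive, against 57.3% of all probe sets, and a median of 0.11. The 121 probe sets of cytosolic ribosomal proteins had 0 calls and 49 positive differences, against 57.3% of all probe sets. Their median was -0.02 and ran from -0.12 to 0.03 when single arrays were left out.

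Of the 15 largest named differences higher at 1000 Hz, 4 were plastid genes and 1 a glutamate receptor-like gene, and the other 10 carry only locus names in the annotation used. AT3G16670 had 8.94, 8.39 and 9.31 at 1000 Hz and 6.59, 7.31 and 6.96 at 250 Hz, with no overlap (1.93 ± 0.37, 3.80-fold, adjusted p = 0.0264). AT3G05730 had 9.88, 9.40 and 10.27 against 7.99, 8.85 and 7.67 (1.68 ± 0.37, adjusted p = 0.0391). AT4G03450 had 8.03, 8.85 and 7.89 against 6.93, 6.26 and 6.77 (1.60 ± 0.36, adjusted p = 0.0456). These 3 differed in the other groups. At 2000 Hz AT3G16670 and AT3G05730 had means of 9.20 and 9.79, within the range of 1000 Hz, and AT4G03450 had 6.77, within that of 250 Hz.

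The other 7 were AT1G51620, AT2G27660, AT3G25610, AT1G51270, AT1G76970, AT5G20400 and AT4G14610, with differences of 1.35, 1.30, 1.21, 1.09, 1.00, 0.98 and 0.90. AT1G51270 was read by 2 probe sets, which gave 1.09 ± 0.19 and 0.60 ± 0.14, and both passed. AT1G76970 had 8.19, 8.22 and 7.86 at 1000 Hz and 7.13, 6.80 and 7.34 at 250 Hz (adjusted p = 0.0124). For AT1G51620 the mean at 500 Hz was 6.29, near 1000 Hz, and those at 2000 and 3000 Hz were 4.92 and 5.05, near 250 Hz.

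Without 250 Hz replicate 1, 2 or 3, 1, 1 and 13 of these 15 passed, and without 1000 Hz replicate 1, 2 or 3, 4, 1 and 8 passed. All 15 kept their direction, again made certain by the rule of no overlap, and 9 passed in the 6 arrays alone. Outside the 15, cwINV6 (AT5G11920), annotated as a fructan exohydrolase, passed without any single array. Its signals were 5.16, 5.15 and 5.49 at 1000 Hz and 4.44, 4.33 and 4.39 at 250 Hz (0.88 ± 0.12, adjusted p = 0.00562). It is named because it passed in all 6 fits, which was known only after its values were seen.

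**Figure D3:**
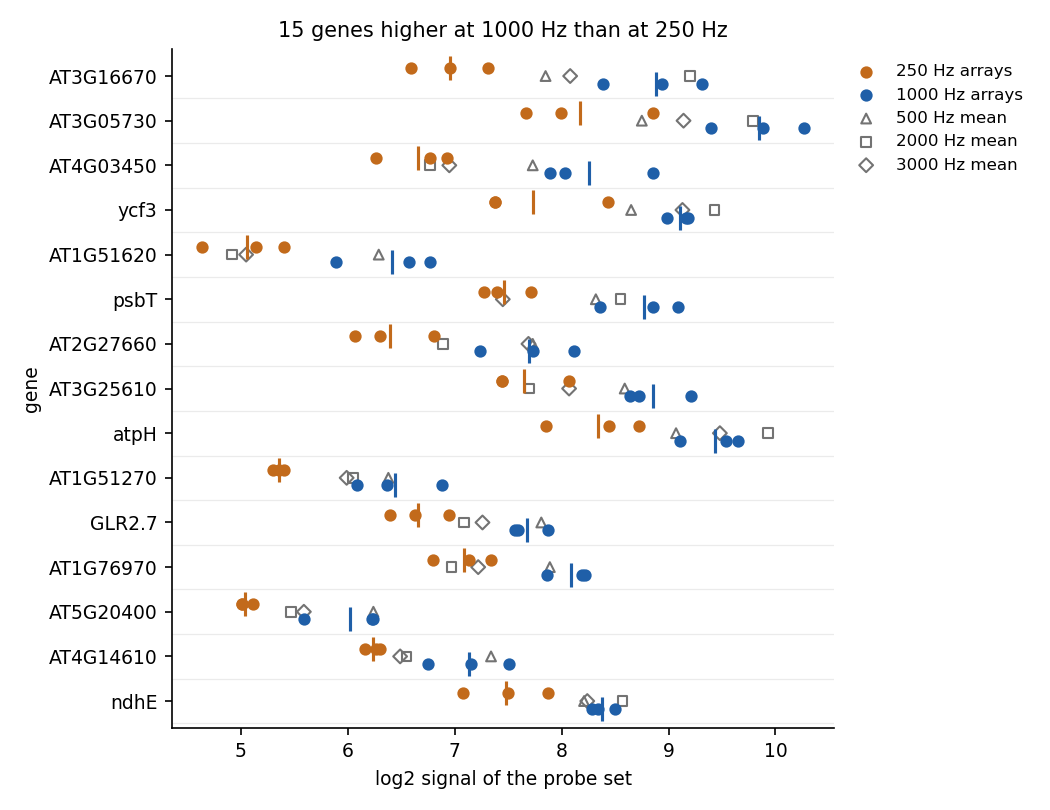
Log2 signals (horizontal axis) of the 15 named genes with the largest differences higher at 1000 Hz. Filled points are single arrays at 250 Hz (orange) and 1000 Hz (blue), vertical ticks are the means of 3 arrays, and open symbols are the means at 500, 2000 and 3000 Hz. The naming rule required no overlap, so the blue points lie to the right of the orange ones in every row. The third 250 Hz array of ycf3 lies near the blue points.

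Glutamate receptor-like genes encode ion channels that take part in wound and defence signalling. Of 8 measured, 2 were higher by the test, against 0.805% of all probe sets, 7 were positive and the median was 0.17. The list was added with earlier results known, and its calls fell to 0 with all 18 arrays and without 250 Hz replicate 1 or 2 or 1000 Hz replicate 1 or 2. GLR2.7 (AT2G29120) had 7.59, 7.87 and 7.56 at 1000 Hz and 6.63, 6.40 and 6.95 at 250 Hz (1.01 ± 0.18, adjusted p = 0.0193). GLR1.4 (AT3G07520) had 6.62, 6.85 and 6.49 against 5.80, 5.93 and 5.94 (0.76 ± 0.16, adjusted p = 0.0328). In both genes the groups were well separated. GLR2.8, next to GLR2.7 by locus number and a close paralogue whose transcripts may cross-hybridise, had 1.18 ± 0.30 (adjusted p = 0.0639). GLR3.3 and GLR3.6, known for carrying wound signals, had -0.09 ± 0.16 and 0.22 ± 0.11 (adjusted p = 0.788 and 0.264).

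Resistance proteins of the NLR and TIR classes detect pathogen effectors inside cells. Of 107 probe sets assigned to them by locus, 5 were higher and 0 lower by the test, 4.67% against 0.805% of all probe sets. 90 were positive, against 57.3% of all probe sets. The median was 0.15, or 0.19 with arrays centred on their medians and 0.11 after quantile normalization. The list was added after values had been seen, so nothing is rested on its count, which was 0, 0 and 8 without 250 Hz replicate 1, 2 or 3 and 2, 0 and 6 without 1000 Hz replicate 1, 2 or 3. The largest called member was AT4G14610 (0.90 ± 0.16, adjusted p = 0.0193), followed by AT5G41550 (0.66), AT2G16870 (0.48), AT4G36140 (0.44) and AT1G12290 (0.41). AT5G41550 had 5.34, 5.27 and 4.90 at 1000 Hz and 4.51, 4.42 and 4.60 at 250 Hz.

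By array, the mean deviation of this list was -0.10, -0.14 and 0.01 at 250 Hz and 0.08, 0.17 and 0.06 at 1000 Hz. The groups did not overlap, and 250 Hz replicate 3 was again the nearest to 1000 Hz. The group mean at 500 Hz was 0.11, as at 1000 Hz, while 2000 and 3000 Hz both had -0.07, near the -0.08 of 250 Hz. Spike signals were higher at 2000 and 3000 Hz, and their part in these levels was not tested. Of 34 leucine-rich repeat receptor kinases of subfamily I, a list also added after values had been seen, AT1G51790 alone passed (0.82 ± 0.17, adjusted p = 0.0353), with 24 positive and a median of 0.07. Over all probe sets, 0.805% were higher by the test and 57.3% were positive.

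**Figure D4:**
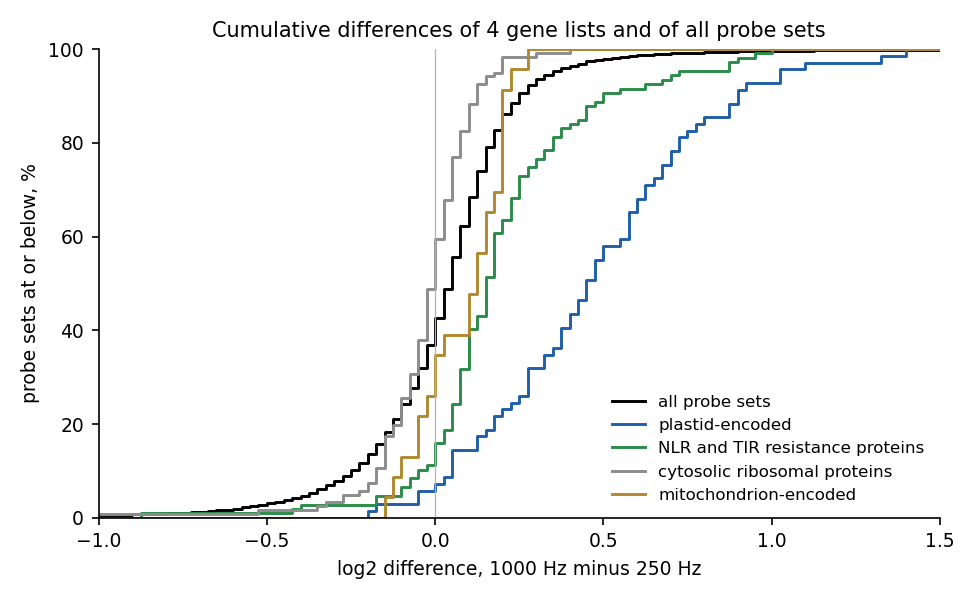
Cumulative share of probe sets (vertical axis, percent) at or below a given log2 difference, 1000 Hz minus 250 Hz (horizontal axis), for all 22746 probe sets and 4 gene lists. The curve of the plastid-encoded genes lies farthest to the right, with a median of 0.45, followed by the NLR and TIR genes at 0.15. The cytosolic ribosomal proteins have a median of -0.02, with 59.5% at or below 0 against 42.7% of all probe sets.

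The 6 sugar starvation genes measured, of 17 loci listed, all had negative differences, with a median of -0.55, or -0.34 without 250 Hz replicate 3. By the test 1 was lower, against 0.862% of all probe sets. The 1 that passed, AT5G38710, had 6.87, 7.34 and 7.10 at 250 Hz and 6.20, 5.83 and 6.25 at 1000 Hz (-1.01 ± 0.19, adjusted p = 0.0238), and passed only without replicate 3 of either group among the fits that leave out an array. AT2G20670 had -1.31 ± 0.49 and AT3G15450 had -0.58 ± 0.29, and neither passed (adjusted p = 0.163 and 0.281). The 10 autophagy genes, ATG3 and the ATG8 family that coats the autophagosome, had 0 positive differences, against 57.3% of all probe sets. They had 0 calls and a median of -0.22. ATG8B had the smallest p among them (-0.47 ± 0.12, adjusted p = 0.0639). The autophagy list was added with earlier results known, so its count is a description only.

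Sugar-handling and wall-linked families gave 1 or 2 calls each, against 1.67% of all probe sets, and all of the calls in this paragraph were lost without 1000 Hz replicate 2. SWEET17, a vacuolar fructose transporter, was lower (-0.51 ± 0.11, adjusted p = 0.0353), the single call among 14 SWEET genes. BGLU45, which releases monolignols from their glucosides, had 4.79, 4.52 and 4.58 at 250 Hz and 3.83, 3.83 and 3.93 at 1000 Hz (-0.77 ± 0.12, adjusted p = 0.0115), the single call among 22 beta-glucosidases. Its close relative BGLU46 was at -0.36 ± 0.09 (adjusted p = 0.0653). The BGLU45 signals lay far below the array medians in both groups, and the part of background in them was not tested. Of 22 TBL genes, for acetylation of wall polymers, TBL23 was higher (0.38 ± 0.09) and TBL36 lower (-0.50 ± 0.11). Of 47 UGT glycosyltransferases, UGT84A4 was higher (0.57 ± 0.09, adjusted p = 0.0124) and UGT76E12 lower (-0.99 ± 0.23, adjusted p = 0.0498).

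Single calls also came from the cytochromes P450 with CYP71B28 (-0.51 ± 0.10), the tubulins with TUB6 (-0.48 ± 0.11), the histones with AT2G37470 (-0.57 ± 0.09), the heat shock proteins and cochaperones with AT1G54050 (-0.98 ± 0.22) and the exocyst and ESCRT genes with SEC6 (0.33 ± 0.08). These lists had 26, 7, 15, 18 and 21 measured members, and their medians lay between -0.13 and 0.07. Over all probe sets, 1.67% passed.

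No measured member of the touch and rapid stress lists passed the test. Of 34 rapid stress loci 11 were measured, with 7 positive, against 57.3% of all probe sets, and a median of 0.13. That median had no settled direction: leaving out 250 Hz replicate 2 gave -0.20, leaving out 1000 Hz replicate 1 gave -0.17, and leaving out 250 Hz replicate 3 gave 0.44. Of 9 touch and calmodulin-like genes 0 passed, with 3 positive and a median of -0.21. CML38, a calmodulin-like gene, had 8.92, 8.70 and 9.34 at 250 Hz and 9.31, 8.97 and 8.04 at 1000 Hz, overlapping throughout (-0.21 ± 0.47, adjusted p = 0.832). EXO (AT4G08950), a cell expansion gene, had 12.86, 12.88 and 13.22 against 12.58, 12.81 and 12.74. Its groups did not overlap, but the difference of -0.28 ± 0.14 did not pass (adjusted p = 0.300). CML23 had the smallest p of the touch list (-0.62 ± 0.19, adjusted p = 0.103).

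Cell wall loosening genes gave 0 calls among 27 XTH and expansin genes, with 19 positive, against 57.3% of all probe sets, and a median of 0.10. XTH33 had 8.56, 8.74 and 8.89 at 1000 Hz and 7.94, 7.79 and 7.67 at 250 Hz without passing (0.93 ± 0.25, adjusted p = 0.0691), although it passed in the 6 arrays alone (adjusted p = 0.0162). XTH18 had the largest difference of the list, 1.47 ± 0.51 (adjusted p = 0.135). Of the 53 lists with at least 3 measured members, 35 had 0 calls, among them auxin response, WRKY, bZIP, glutathione transferases, peroxidases, subtilases, glucosinolate and unfolded protein response genes. A further 12 lists had 1 or 2 measured members and 0 calls: the jasmonate list above, clock, cytokinin response regulators, sulfur response, heat shock and histone genes matched by name, NAC, bHLH, pentatricopeptide repeat, RNA helicase and tRNA synthetase genes, and leaf markers.

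**Figure D5:**
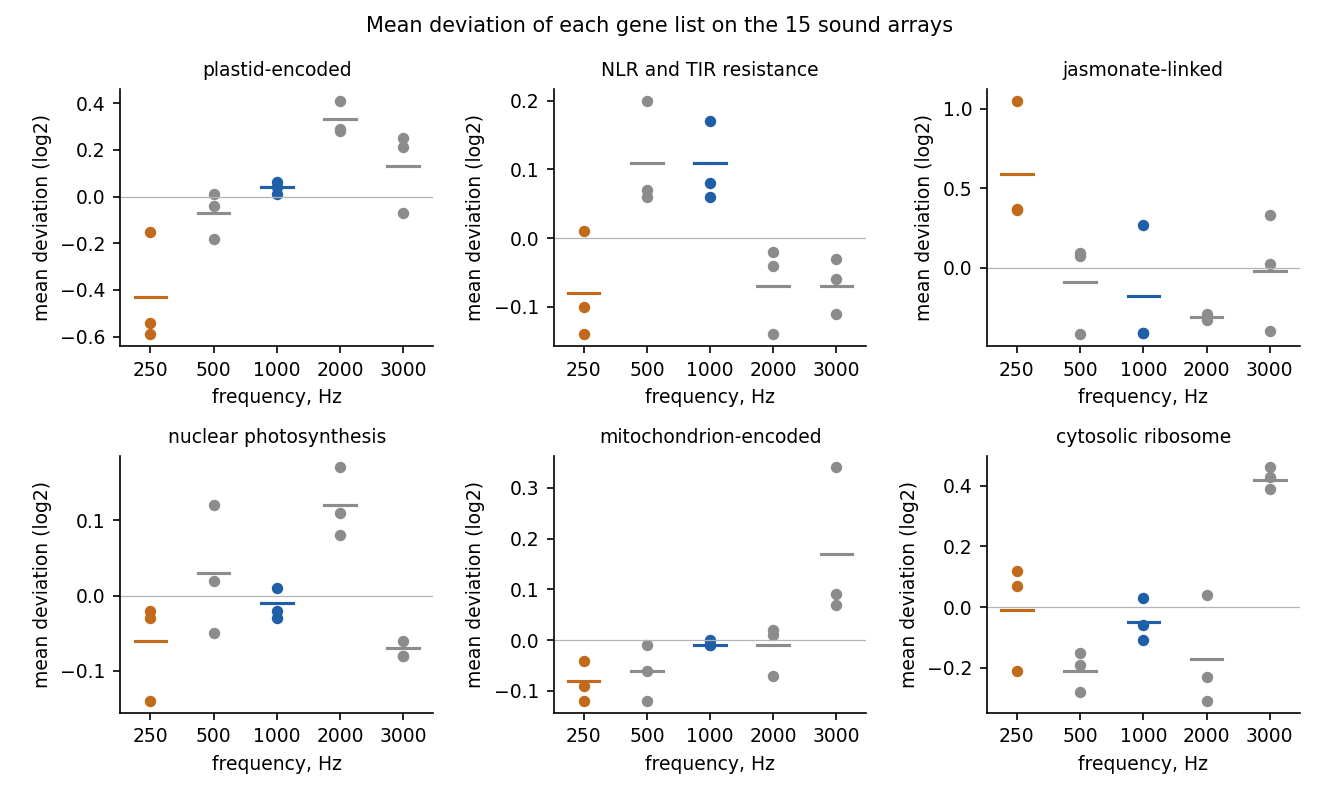
Mean deviation of 6 gene lists on each of the 15 sound arrays (vertical axis, log2 units, each gene taken against its own mean over those arrays), by frequency in Hz (horizontal axis). Points are arrays and bars are group means, orange for 250 Hz and blue for 1000 Hz, and the vertical scale differs between panels. In the plastid panel the 250 Hz points are the 3 lowest but for 1 array at 500 Hz, whereas for the nuclear photosynthesis genes the 2 groups overlap.

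For the 379 called probe sets, the mean of each other sound group was set against those of 250 and 1000 Hz. Of the 196 that were lower at 1000 Hz, 250 Hz had the highest mean of the 5 sound groups in 167, and 1000 Hz had the lowest in 97. The means at 500, 2000 and 3000 Hz all lay nearer to 1000 Hz in 93 of these and all nearer to 250 Hz in 5. Of the 183 that were higher at 1000 Hz, 250 Hz had the lowest mean in 130 and 1000 Hz the highest in 102. All 3 other groups lay nearer to 1000 Hz in 51 and nearer to 250 Hz in 17. Among these 183 the group at 500 Hz lay nearer to 1000 Hz in 149, but those at 2000 and 3000 Hz in 72 and 86. Among the 196 lower ones, the groups at 500, 2000 and 3000 Hz lay nearer to 1000 Hz in 167, 111 and 162. These probe sets were chosen for the difference between 250 and 1000 Hz, so the outer places of those groups follow in part from the choice. Spike signals at 2000 and 3000 Hz were above those of the other sound groups, and their part in these counts was not tested.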

How the data were processed

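The authors deposited a log2 signal for each probe set on each of 18 arrays. Per the submitters' processing notes, the tools were MAS5, RMA and Affymetrix Expression Console 1.1. Which of them made the log2 column is not given in the sources used here. The array medians were 6.55 to 6.63 at 250 Hz and 6.52 to 6.57 at 1000 Hz, and no further scaling was applied. Of 22810 probe sets, 64 Affymetrix controls were set aside. Genes came from the platform's table and RefSeq: 13436 probe sets had a single gene, a further 77 a platform name only, 503 several genes and 8730 none that could be named. No coordinates or sequences were used here.

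Group means of the 15 sound arrays were fitted with limma 3.58.1 in R 4.3.3 (lmFit, eBayes with an intensity trend). The contrast of 1000 minus 250 Hz was tested two-sided with Benjamini-Hochberg adjustment over 22746 probe sets. Values after ± are standard errors from this fit, with 3 arrays per group, whose number limits the precision. P values set the difference of the group means against the spread between replicate arrays, shared over the 5 sound groups. The rule named the 15 largest differences in each direction among probe sets with an adjusted p under 0.05, a single gene and no overlap. It also named from each gene list the largest passing members or, with none, the member with the smallest p, and BSMT1, CML38 and EXO. Other members are examples chosen after their values were seen. Members and lists were chosen with earlier results of these data known. Lists were written by locus from general knowledge or matched by symbol, and 12 of 77 had no measured member. Alternatives changed the arrays fitted, the scaling, the filter, the variance model and the replicate block. On simulated data the fit recovered 58, 84, 100 and 98% of differences of 0.5, 1, 1.5 and 2 (log2), with 11 unchanged probe sets called. The simulated noise was normal and independent, with a single SD per probe set in all groups and no outlying array. These rates therefore need not hold for the real arrays. Planned promoter motifs were not analysed here. The counts of 1 further gene list are not reported here.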

Additional observations from a re-analysis of the deposited data

How the results depend on the processing

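The number of calls, 379 (183 higher, 196 lower), depended on which arrays shared the spread: it was 236 (90 and 146) in the 6 arrays alone, 164 (62 and 102) with the 9 arrays of 250, 500 and 1000 Hz, and 55 (9 and 46) with all 18. Of the 379, 145 also passed in the 6 arrays alone. Array weights gave 1429 (727 and 702), and median centring 298 higher, while quantile normalization, a filter at a mean signal of 5 and a fit without the trend gave 419, 477 and 411. Leaving out 1 array gave 33 to 717 calls, 5 to 294 higher and 22 to 423 lower. The 15 plastid genes became 4, 3, 3 and 40 in the 6, 18 and 9 arrays and with array weights, and 1 to 38 when an array was left out, with medians of 0.36 to 0.60. The 5 resistance genes became 1, 1, 1, 17 and, with median centring, 8, and 0 to 8 when an array was left out, with medians of 0.13 to 0.16. The filter moved their median to 0.22. Of the 43 named genes that passed, 27, 27 and 11 also passed in the 6, 9 and 18 arrays, and 31 with the replicate block. CML38, not called, ran from -0.48 without 1000 Hz replicate 1 to 0.15 without replicate 3. The cause was not tested. Shared replicate numbers did not pair the arrays: same-numbered arrays had correlations of deviations of -0.09, -0.20 and -0.23, and none correlated best with its own number. The replicate block gave 265 calls (106 and 159).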
